A study of Mus musculus with 15 samples.

Results

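Norrin is a secreted ligand and Lrp5 is a coreceptor of the receptor that binds it, and the 2 knockouts were compared directly in purified retinal endothelial cells of adult mice. The comparison rests on 6 of the 15 arrays of the series: the 3 arrays whose titles name the Norrin knockout (Norrin KO) and the 3 whose titles name Lrp5-/- (Lrp5 KO). The mutants carried no other stated alteration, and the 6 wild-type arrays give levels only. All mice were adults on a mixed C57Bl6/129 background. Endothelial cells were captured with beads carrying an antibody to PECAM, and every array was hybridised with the RNA of a pool of 5 to 10 mice. The remaining 3 arrays, from mice lacking the receptor Fz4, entered the fit to help estimate the spread. A difference is given throughout as Norrin KO minus Lrp5 KO on the log2 scale, so that a positive value means a higher signal in Norrin KO.

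Norrin binds Frizzled4 on endothelial cells together with Lrp5 or the related Lrp6, and the tetraspanin Tspan12 strengthens this complex. The signal stabilises beta-catenin, which enters the nucleus and acts with factors of the TCF and LEF family. In the retina the pathway is known for building the deep capillary beds and for keeping the blood-retina barrier, whose cells carry many nutrient transporters, hold tight junctions and lack fenestrae. Loss of the ligand and loss of the coreceptor both disturb retinal vessels in mice and in humans with inherited retinal vascular disease. A difference between the knockouts asks where absence of this ligand and absence of this coreceptor leave endothelial cells in different states.

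The arrays of each knockout correlated with each other at 0.976 to 0.988 (Norrin KO) and 0.972 to 0.991 (Lrp5 KO), and at 0.938 to 0.984 between the knockouts. Norrin KO 1 stood apart in its RNA controls. The gap between the 3′ and 5′ probe sets for actin was 2.92, 1.05 and 1.46 log2 units on Norrin KO 1, 2 and 3, against 0.957, 0.863 and 0.558 on Lrp5 KO 1, 2 and 3 and 0.695 to 1.04 in wild type. It was larger on every Norrin KO array than on every Lrp5 KO array, so this measure of RNA quality and the genotype cannot be fully told apart. The same gap for Gapdh was 2.99, 0.887 and 1.42 in Norrin KO, against 1.22, 1.00 and 0.776 in Lrp5 KO and 0.966 to 1.315 in wild type, so the knockouts overlapped in it, and Norrin KO 1 was the high array in both. The Cre spike controls, which are added to each sample, read 14.11 to 14.21 on the Norrin KO arrays, against 14.44 to 14.63 on the Lrp5 KO arrays and 14.53 to 14.66 in wild type. Lrp5 KO 1 lay farthest out on the second principal component (17.8% of the variance, at 77.4), with Lrp5 KO 3 at 29.2 and wild type 4 at 34.0 on the same side. Lrp5 KO 1 and wild type 4 also had the lowest upper quartiles of the 15 arrays, 8.11 and 8.07. The labels describe mixed gender for every pool, but Xist read 4.98, 4.12 and 4.45 in Norrin KO, against 5.9, 4.76 and 12.21 in Lrp5 KO, and the Y-linked Eif2s3y read 9.77, 10.32 and 10.28 in Norrin KO, against 10.11, 10.48 and 3.21 in Lrp5 KO. All 3 Norrin KO pools and 2 Lrp5 KO pools thus had a male signal only, and Lrp5 KO 3 a female signal only. The labels name no batches, so batch and genotype cannot be told apart, and since all arrays are pools, p-values measure the spread between pools.

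Of the 5 ligand and receptor genes measured, 1 passed the threshold between the knockouts, the deleted Lrp5 itself. Values are log2 signals of the probe set with the highest mean for each gene, and a gene passed, rose or fell where its adjusted p in the limma fit over all genes was below 0.05. Lrp5 gave log2 signals of 8.24, 7.92 and 7.69 in Norrin KO, against 4.4, 5.07 and 5.25 in Lrp5 KO. Wild type lay at 7.22 to 7.95 with a median of 7.71, so Norrin KO arrays were at or just above the wild-type level and all Lrp5 KO arrays far below it. The difference was 3.05 (95% interval 2.52 to 3.58), or 8.27-fold, with an adjusted p of 5.2e-05 in the limma fit. Ndp, the gene of Norrin, read 4.17, 4.35 and 3.88 in Norrin KO, against 4.55, 4.37 and 3.95 in Lrp5 KO and a median of 4.38 in wild type. Its 3 groups overlapped, at a level in the lower part of every array, so the Ndp probe set does not check the Norrin KO label in these cells.

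The receptor Fzd4 averaged 11.65 ± 0.17 in Norrin KO and 11.89 ± 0.06 in Lrp5 KO (SD, n = 3 each), a difference of −0.24 with a 95% interval of −0.62 to 0.14. Tspan12 had the same difference, −0.24 (−0.68 to 0.19). Lrp6, the other coreceptor, read 11.27, 11.33 and 11.47 in Norrin KO, against 10.81, 11.1 and 11.02 in Lrp5 KO, with wild type at a median of 11.58. Its knockout arrays did not overlap, and Lrp6 was 0.38 higher in Norrin KO (0.08 to 0.69), yet it did not pass (adjusted p = 0.0924).

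**Figure D1:**
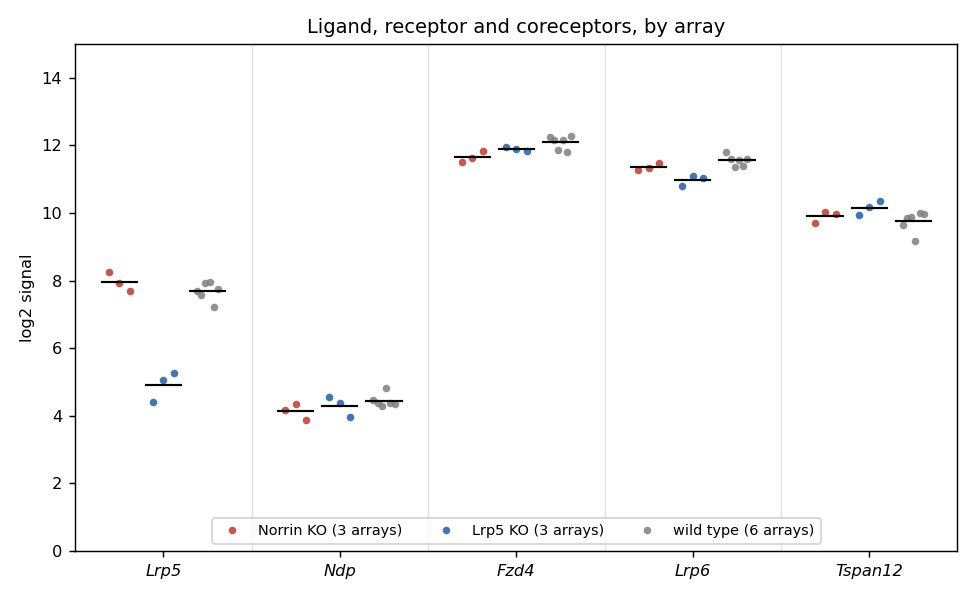
Log2 signal (vertical axis) of the ligand, receptor and coreceptor genes by array, with points for arrays and bars for group means, for Norrin KO, Lrp5 KO and wild type. Lrp5 lies at 7.69 to 8.24 in Norrin KO, against 4.4 to 5.25 in Lrp5 KO, while the groups overlap for Ndp, Fzd4 and Tspan12.

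Over all 18194 genes, 2171 (11.9%) passed the threshold of an adjusted p of 0.05 between the knockouts. Of these, 1729 genes (9.50%) were higher in Norrin KO and 442 (2.43%) were lower. The arrays of the 2 knockouts did not overlap for 30.8% of all genes (20.0% higher and 10.8% lower in Norrin KO), and for 2118 of the 2171 that passed. The median difference over all genes was 0.08. The number of calls depended on single arrays. Without Lrp5 KO 1, 523 higher and 145 lower genes passed, and without Norrin KO 1, 838 and 198. Without Lrp5 KO 3 the counts were 807 and 180, and without Norrin KO 3 they were 1021 and 253. They rose to 2143 and 535 without Lrp5 KO 2, and to 1906 and 472 without Norrin KO 2. With the actin gap as a covariate 191 and 52 passed, and with the 6 knockout arrays fitted alone 158 and 40. A core of 556 genes, 470 higher and 86 lower, passed whichever of the 6 arrays was left out.

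For 75.8% of the genes that passed, the wild-type mean lay nearer to Lrp5 KO than to Norrin KO, against 62.3% of all genes. This split described 74.0% of the genes that rose and 82.8% of those that fell.

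**Figure D2:**
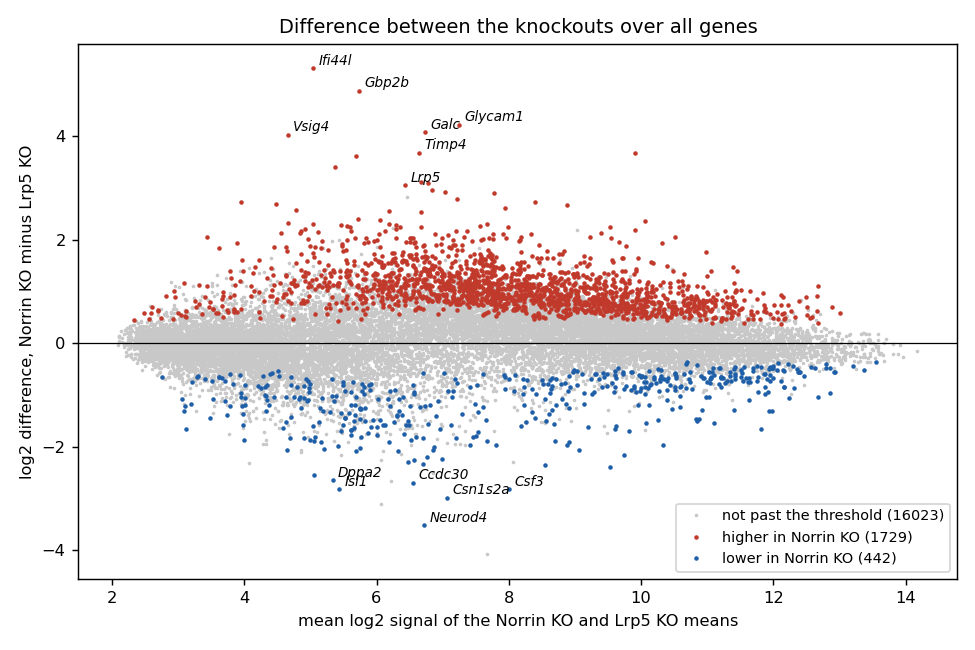
Difference between Norrin KO and Lrp5 KO (vertical axis, log2) against the mean log2 signal of both knockouts (horizontal axis), 1 point per gene, with the genes higher in Norrin KO in red, those lower in blue and the remaining ones in grey. The 1729 genes above the line outnumber the 442 below it, and Ifi44l, Gbp2b and Glycam1 lie at the top.

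Several transporters of the blood-retina barrier were lower in Norrin KO than in Lrp5 KO, and for those 6 both knockouts were below wild type. Of 21 transporters measured, 6 fell in Norrin KO and 1 rose, against 2.43% and 9.50% of all genes, and the median difference of the list was −0.16. Slc38a5, a carrier for glutamine and other neutral amino acids, read 2.48, 2.65 and 2.21 in Norrin KO, against 3.24, 4.63 and 3.36 in Lrp5 KO and 10.22 to 10.5 in wild type (median 10.33). The knockout arrays did not overlap, and both knockouts lay far below wild type. The difference was −1.3 (95% interval −1.9 to −0.7, adjusted p = 0.0115), at levels near the bottom of the arrays, whose lower quartiles were 3.95 to 4.25 in the 6 knockout arrays.

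Slco1a4, an organic anion carrier of brain and retinal endothelium, lay above the upper quartile of every array. It read 9.64, 9.87 and 9.98 in Norrin KO, against 10.88, 11.39 and 11.02 in Lrp5 KO and a median of 12.86 in wild type. Its difference was −1.27 (−1.65 to −0.88, adjusted p = 0.0017), so Norrin KO stood 2.4-fold below Lrp5 KO with no overlap. Slc16a1, a lactate and ketone body carrier, read 10.04, 10.26 and 9.63 in Norrin KO, against 11.46, 10.93 and 11.24 in Lrp5 KO and a median of 13.35 in wild type. Abcb1a, the efflux pump P-glycoprotein, read 11.16, 11.33 and 11.24 in Norrin KO, against 11.81, 12.14 and 11.99 in Lrp5 KO and a median of 13.14 in wild type. For both genes the 3 groups formed 3 separate levels, with Norrin KO lowest. The difference was −1.24 for Slc16a1 (adjusted p = 0.00286) and −0.74 for Abcb1a (adjusted p = 0.00305). A second probe set for Abcb1a gave −0.84 and also passed, whereas the second probe set for Slc16a1 gave −0.25 and did not.

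The monocarboxylate carrier Slc16a4 (−1.21, adjusted p = 0.00518) and the glutamine carrier Slc38a3 (−1.03, adjusted p = 0.0393) followed the same order of groups. A second probe set gave 0.11 for Slc16a4 and −0.25 for Slc38a3, and neither passed. Slc16a4 averaged 6.13 ± 0.35 in Norrin KO and 7.35 ± 0.42 in Lrp5 KO, with 9.96 ± 0.17 in wild type (SD, n = 3, 3 and 6). Slc38a3 averaged 6.62 ± 0.42 in Norrin KO and 7.66 ± 0.38 in Lrp5 KO, with 10.19 ± 0.27 in wild type. The single transporter that rose was Abcc4, an efflux pump for organic anions and cyclic nucleotides, at 10.91, 10.41 and 10.46 in Norrin KO, against 9.72, 10.07 and 9.99 in Lrp5 KO. Its wild-type median of 11.1 was closer to Norrin KO, and the difference was 0.66 (0.33 to 0.99, adjusted p = 0.0156).

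Some of the best known barrier transporters lay close to each other in the knockouts. Mfsd2a, a lipid carrier that restrains transcytosis, averaged 7.91 ± 0.22 in Norrin KO and 7.99 ± 0.45 in Lrp5 KO, against 11.99 ± 0.11 in wild type, and its interval of −0.65 to 0.49 leaves room for a modest difference either way. Slco1c1, the thyroid hormone carrier, averaged 6.8 and 6.87, against 13.01 in wild type (interval −0.76 to 0.63). Slc2a1, the glucose carrier, differed by −0.16 (−0.45 to 0.13), and Slc22a8, an organic anion carrier, by 0.56 (−0.15 to 1.27). Of the 7 transporters that passed, 5 passed whichever knockout array was left out, the exceptions being Slc38a3 and Abcc4. With the actin gap as a covariate Slco1a4, Slc16a1 and Abcb1a still passed, while Slc38a5, Slc16a4, Slc38a3 and Abcc4 did not (adjusted p = 0.0905, 0.0925, 0.0759 and 0.19). The differences of these 4 in that fit were −1.35, −0.83, −1.41 and 0.45, so Slc38a5 and Slc38a3 differed by no less than without the covariate. With the 6 knockout arrays alone only Slco1a4 passed.

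Promoters are shown for 2 of the carriers that fell together, as beta-catenin acts through TCF and LEF factors: the one with the largest difference and the only one whose window holds the core motif of these factors. The motif searched was CTTTGA, read as TCAAAG on the other strand, in the 300 bases from 250 before to 50 after the annotated start, from RefSeq on GRCm38.p6. Of the 6 carriers that fell, 5 had an entry in that table, and only Abcb1a held the motif, with 2 matches. The motif occurred in 16.0% of 32851 promoters of the same length. Matches stand in capitals and are a description of the letters only, and the windows without a match say nothing about the factors. The Slc38a5 window (chrX:8271131-8271430, plus strand) and the Abcb1a window (chr5:8566841-8567140, plus strand) read as follows from 5′ to 3′.
Slc38a5: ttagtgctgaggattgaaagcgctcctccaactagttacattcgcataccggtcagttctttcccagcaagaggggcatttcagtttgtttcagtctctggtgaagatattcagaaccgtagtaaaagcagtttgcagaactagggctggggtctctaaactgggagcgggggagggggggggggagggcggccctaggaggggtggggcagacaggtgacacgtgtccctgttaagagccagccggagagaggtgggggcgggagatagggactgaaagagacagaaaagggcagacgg
Abcb1a: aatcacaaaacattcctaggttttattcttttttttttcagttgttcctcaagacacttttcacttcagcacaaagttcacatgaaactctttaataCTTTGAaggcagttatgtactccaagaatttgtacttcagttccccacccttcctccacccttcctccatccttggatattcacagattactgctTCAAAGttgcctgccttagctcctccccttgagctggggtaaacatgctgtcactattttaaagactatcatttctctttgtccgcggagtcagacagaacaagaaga

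Among junction genes 1 of 15 measured differed, beside 11.9% of all genes. Lsr, which organises junctions where 3 cells meet, read 7.6, 7.37 and 7.52 in Norrin KO, against 9, 9.32 and 8.74 in Lrp5 KO and a median of 11.46 in wild type. The groups formed 3 separate levels, and the difference was −1.52 (−1.86 to −1.19, adjusted p = 0.000397). The call held without any 1 of the 6 arrays, with the actin gap as a covariate (adjusted p = 0.0033) and with the 6 arrays alone (adjusted p = 0.033), although a second, dimmer probe set gave 0.09. Cldn5, the main claudin of barrier endothelium, read 11.07, 11.28 and 11.56 in Norrin KO, against 11.96, 11.75 and 11.61 in Lrp5 KO and a median of 13.05 in wild type. Its arrays did not overlap, and its difference of −0.47 (−0.78 to −0.16) missed the threshold (adjusted p = 0.0508). Ocln, another tight junction strand protein, differed by −0.86 (−1.59 to −0.13, adjusted p = 0.112), though its second probe set passed with −0.84, and its scaffold Tjp1 by −0.35 (−0.65 to −0.04, adjusted p = 0.121), while the adherens junction cadherin Cdh5 differed by −0.21 (−0.54 to 0.12). The list median was −0.24.

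Genes of fenestrae, caveolae and capillaries without a barrier showed 4 rises and no fall among 16 measured, beside 9.50% higher and 2.43% lower among all genes, with a list median of 0.05. Fabp4, a fatty acid binding protein of peripheral capillaries, read 12.33, 12.46 and 11.57 in Norrin KO, against 10.14, 10.89 and 10.92 in Lrp5 KO and a median of 8.9 in wild type. Cavin3, a coat protein of caveolae, read 10.48, 10.04 and 10.26 in Norrin KO, against 9.17, 9.51 and 9.24 in Lrp5 KO and a median of 8.49 in wild type. In both genes all Norrin KO arrays were above all Lrp5 KO arrays, with a difference of 1.47 for Fabp4 (adjusted p = 0.0253) and 0.95 for Cavin3 (adjusted p = 0.00581). Gpihbp1, the endothelial anchor of lipoprotein lipase, and the butyrophilin-like Btnl9 each differed by 0.84 (adjusted p = 0.0469 and 0.0421), at means of 11.97 and 11.46 in Norrin KO, against 11.13 and 10.62 in Lrp5 KO and 4.67 and 4.15 in wild type. Of these 4, only Cavin3 passed without any 1 of the 6 arrays, and none passed with the actin gap as a covariate (adjusted p = 0.0928 to 0.23). The differences in that fit were 1.49 for Fabp4, 0.74 for Cavin3, 0.79 for Gpihbp1 and 0.78 for Btnl9, against 1.47, 0.95, 0.84 and 0.84 without the covariate.

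Plvap, the diaphragm protein of fenestrae, read 12.65, 12.42 and 12.59 in Norrin KO, against 12.28, 12.31 and 12.17 in Lrp5 KO and a median of 5.34 in wild type. Both knockouts were far above wild type, and the difference between them was 0.3 (−0.3 to 0.9, adjusted p = 0.496). The water channel Aqp1 differed by −0.68 (−1.4 to 0.04) and the caveolar Cav1 by −0.25 (−0.54 to 0.04), and neither passed.

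**Figure D3:**
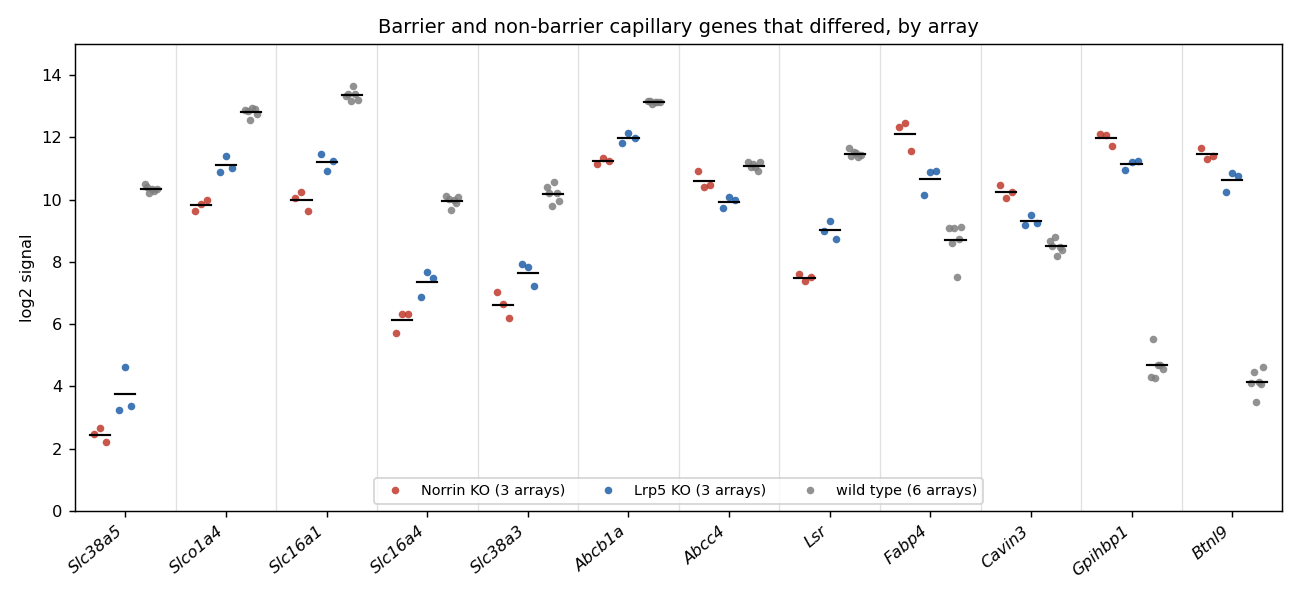
Log2 signal (vertical axis) by array for 7 transporters, the junction gene Lsr and 4 capillary genes that passed the threshold, with points for arrays and bars for group means. For the 6 transporters that fell and for Lsr the groups run upward from Norrin KO through Lrp5 KO to wild type, and for the 4 capillary genes they run downward.

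Feedback genes and targets of beta-catenin gave 2 rises and no fall among 16 measured, which is about the 9.50% of all genes that rose, with a list median of 0.2. Nkd1, a feedback inhibitor, read 8.43, 7.97 and 7.6 in Norrin KO, against 5.57, 6.49 and 5.84 in Lrp5 KO and a median of 7.95 in wild type. Norrin KO was at the wild-type level and Lrp5 KO below every wild-type array, a difference of 2.03 (1.18 to 2.87, adjusted p = 0.00759). Of 3 other probe sets for Nkd1, with differences of −0.12 to 1.14, 1 passed. Ccnd1, which encodes the cell cycle regulator cyclin D1, read 11.69, 11.73 and 12 in Norrin KO, against 10.77, 11.2 and 10.99 in Lrp5 KO. Here Norrin KO lay farther from the wild-type median of 10.3, and the difference was 0.82 (adjusted p = 0.0188). Neither passed with the actin gap as a covariate (differences of 1.64 and 0.88, adjusted p = 0.118 and 0.102).

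Axin2, the feedback gene most used as a readout of the pathway, averaged 8.06 ± 0.38 in Norrin KO and 7.85 ± 0.49 in Lrp5 KO, against 10.52 ± 0.33 in wild type. The difference of 0.22 had an interval of −0.5 to 0.94. Apcdd1, a Wnt inhibitor expressed in barrier endothelium, differed by 0.29 (−0.21 to 0.79), and Tnfrsf19, a Wnt-induced receptor of barrier endothelium, by 0.74 (−0.22 to 1.71). Lef1, the transcription factor itself, read 10.78, 11.47 and 11.43 in Norrin KO, against 11.75, 11.81 and 11.74 in Lrp5 KO and a median of 12.67 in wild type. Its knockout arrays did not overlap, and its difference of −0.54 (−0.93 to −0.15) did not pass (adjusted p = 0.0677).

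The largest rises, among genes that passed and whose knockout arrays did not overlap, were mostly in genes for which wild type lay with Lrp5 KO. Ifi44l, an interferon-induced gene, read 6.03, 8.22 and 8.87 in Norrin KO, against 2.59, 2.46 and 2.13 in Lrp5 KO and a median of 2.53 in wild type. Lrp5 KO and wild type were both near the bottom of the arrays, and the difference was 5.31 (4.21 to 6.42), or 39.7-fold, with an adjusted p of 0.000347. Both other probe sets for Ifi44l passed, with differences of 0.78 and 4.14. Gbp2b, an interferon-induced GTPase, read 7.09, 8.56 and 8.87 in Norrin KO, against 3.48, 2.92 and 3.47 in Lrp5 KO and a median of 3.67 in wild type, a difference of 4.88 (adjusted p = 0.00621). Both genes lie on chromosome 3.

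The list of interferon-inducible genes did not show such sizes. Of 17 measured, 1 rose and none fell, beside 9.50% and 2.43% of all genes, with a median of −0.29. The riser was Oasl2, an oligoadenylate synthetase-like gene, at 10.12, 9.75 and 10.29 in Norrin KO, against 8.78, 9.62 and 9.55 in Lrp5 KO (0.74, adjusted p = 0.0478), and it lost its call when the arrays were quantile normalized again (adjusted p = 0.0561). Ifit1 differed by −0.39 (−1.33 to 0.55), Irf7 by −0.31 (−0.72 to 0.1) and Mx1 by −0.27 (−1.17 to 0.63). The chemokine Cxcl10 read 10.21, 11.03 and 11.26 in Norrin KO, against 11.4, 11.73 and 12.27 in Lrp5 KO, without overlap and without passing (−0.97, adjusted p = 0.179).

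Glycam1, a mucin-like ligand of L-selectin, read 8.34, 9.8 and 9.93 in Norrin KO, against 5.01, 5.28 and 5.14 in Lrp5 KO and a median of 5.8 in wild type (4.22, adjusted p = 0.00125). Timp4, an inhibitor of matrix metalloproteinases, read 8.88, 8.42 and 8.14 in Norrin KO, against 3.91, 4.85 and 5.63 in Lrp5 KO and a median of 5.32 in wild type (3.68, adjusted p = 0.000938). Norrin KO arrays stood clear of the Lrp5 KO and wild-type arrays for these genes. The arrays from mice lacking Fz4 were also above wild type, at 9.22, 7.41 and 9.59 for Glycam1 and 7.57, 6.38 and 7.39 for Timp4. Gdpd3, a lysophospholipase D, read 11.15, 12.55 and 11.56 in Norrin KO, against 9.38, 7.94 and 6.89 in Lrp5 KO and a median of 7.65 in wild type (3.68, adjusted p = 0.00506). Slc13a4, a sulfate transporter, and Slc10a6, a carrier of sulfated steroids, differed by 3.12 and 3.09 (adjusted p = 0.000802 and 0.000397). Their means were 8.23 and 8.33 in Norrin KO, against 5.11 and 5.24 in Lrp5 KO and 4.93 and 4.88 in wild type.

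Vsig4 and Fcna are genes of tissue macrophages, a complement receptor and a ficolin. Vsig4 read 7.35, 6.41 and 6.26 in Norrin KO, against 2.52, 2.76 and 2.64 in Lrp5 KO and a median of 2.53 in wild type. Lrp5 KO and wild type were near the bottom of the arrays, and the difference was 4.03 (3.39 to 4.68, adjusted p = 3.7e-05). Fcna read 7.98, 7.68 and 6.83 in Norrin KO, against 3.54, 4.6 and 3.52 in Lrp5 KO (3.61, adjusted p = 0.000944). Scrg1, a small secreted protein, averaged 7.08 ± 0.62 in Norrin KO and 3.67 ± 0.35 in Lrp5 KO (3.41, adjusted p = 0.00143). Cbr2, a carbonyl reductase, averaged 8.32 ± 0.47 in Norrin KO and 5.36 ± 0.56 in Lrp5 KO (2.96, adjusted p = 0.00711). Cnmd, which encodes the cartilage protein chondromodulin, averaged 8.5 ± 0.4 in Norrin KO and 5.56 ± 0.5 in Lrp5 KO (2.93, adjusted p = 0.00107).

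Galc, Lrp5 and Pdgfra were genes of this set for which all Lrp5 KO arrays lay below every wild-type array. Galc, a lysosomal galactosylceramidase on chromosome 12, read 8.89, 8.82 and 8.62 in Norrin KO, against 5.1, 3.43 and 5.58 in Lrp5 KO and a median of 8.36 in wild type. Its difference of 4.07 (adjusted p = 0.000397) was not seen in the 2 other probe sets for the gene, which gave 0.07 and 0.28. Pdgfra, the receptor that marks fibroblasts and astrocyte precursors, read 8.5, 9.66 and 9.5 in Norrin KO, against 5.48, 7.12 and 6.35 in Lrp5 KO and a median of 8.07 in wild type (2.91, adjusted p = 0.00318). All 15 of these largest rises passed whichever knockout array was left out, 14 passed with the actin gap as a covariate (Cbr2 did not, adjusted p = 0.101), and 14 passed in the fit of the 6 arrays alone (Gdpd3 did not, adjusted p = 0.0505). With the mean of the cone markers as a covariate 7 passed.

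The largest falls included genes of retinal neurons and glia, and for most of them wild type lay with Lrp5 KO. Neurod4, a transcription factor of developing retinal neurons, read 4.1, 5.45 and 5.34 in Norrin KO, against 8.61, 8.59 and 8.25 in Lrp5 KO and a median of 7.13 in wild type. The difference was −3.52 (−4.62 to −2.41, adjusted p = 0.00208). Isl1, a factor of ganglion, amacrine and bipolar cells, read 4.67, 3.35 and 4.03 in Norrin KO, against 7.31, 6.7 and 6.52 in Lrp5 KO and a median of 6.43 in wild type (−2.82, adjusted p = 0.00244). Norrin KO was the low group for both genes. Cacna2d3, a calcium channel subunit, averaged 3.78 ± 0.34 in Norrin KO and 6.32 ± 0.36 in Lrp5 KO (−2.54, adjusted p = 0.000938), and Scn3a, a sodium channel of neurons, 5.44 ± 0.6 and 7.7 ± 0.76 (−2.26, adjusted p = 0.00641).

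Aqp4, the water channel of glial endfeet, read 8.86, 8.4 and 7.76 in Norrin KO, against 11.1, 10.55 and 10.54 in Lrp5 KO and 8.38 to 10.13 in wild type (median 9.07). Lrp5 KO arrays lay above every wild-type array, and the difference was −2.39 (adjusted p = 0.0103). Rlbp1, the retinal binding protein of Müller glia and pigment epithelium, read 9.03, 8.81 and 8.17 in Norrin KO, against 11.32, 10.59 and 10.55 in Lrp5 KO and a median of 10.44 in wild type (−2.15, adjusted p = 0.00747). Gpr37, an orphan receptor of glia, averaged 7.36 ± 0.33 in Norrin KO and 9.72 ± 0.61 in Lrp5 KO (−2.36, adjusted p = 0.0179), and Vstm2a averaged 5.54 ± 0.52 and 7.87 ± 0.26 (−2.33, adjusted p = 0.00521).

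Secreted signals were also among the largest falls. Csf3, the granulocyte colony-stimulating factor, read 6.5, 6.53 and 6.76 in Norrin KO, against 9.39, 9.56 and 9.32 in Lrp5 KO. Wild type spread over 5.58 to 8.63, so that Lrp5 KO was the group outside it, and the difference was −2.82 (adjusted p = 0.00699). Ccl11, the eosinophil chemoattractant eotaxin, read 5.4, 5.64 and 5.96 in Norrin KO, against 7.2, 8.23 and 8.17 in Lrp5 KO (−2.2, adjusted p = 0.0113). Slit2, a guidance ligand for Robo receptors, read 4.96, 6.02 and 6.67 in Norrin KO, against 9.24, 7.75 and 7.34 in Lrp5 KO (−2.23, adjusted p = 0.0163). For Ccl11 and Slit2 the wild-type medians were 8.11 and 8.12, on the Lrp5 KO side.

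The remaining falls of this set were Csn1s2a (−2.98), Ccdc30 (−2.69), Dppa2 (−2.65) and 6030407O03Rik (−2.3), with adjusted p of 0.0326, 0.0276, 0.0115 and 0.0171. Csn1s2a encodes a milk casein and Dppa2 a chromatin protein of pluripotent cells. Dppa2 rested on 1 probe set, and the remaining probe set for the gene gave 0.02. No other probe set passed for several more of the largest falls. The others gave −0.4 to 0.46 for Ccdc30 (6 probe sets) and −0.84 to 0.08 for Csn1s2a (4). They gave 0.23 for Scn3a, −0.54 for Isl1, −0.67 and −0.38 for Slit2, and −1.7 and −0.72 for Aqp4. For Neurod4, 1 of 2 others passed, with differences of −3.31 and −0.17. Of the 15 largest falls 8 passed whichever knockout array was left out: Neurod4, Csf3, Isl1, Cacna2d3, Vstm2a, Scn3a, Ccl11 and Rlbp1. With the actin gap as a covariate Neurod4, Isl1 and Cacna2d3 passed, and with the mean of the cone markers as a covariate none did. For several of them Lrp5 KO 1 and wild type 4 were the highest of the knockout and wild-type arrays compared, as in Csn1s2a (10.07 and 10.24), Scn3a (8.57 and 8.59) and Slit2 (9.24 and 8.99). Without Norrin KO 1, Lrp5 KO 1 and wild type 4, 11 of the 15 falls passed.

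**Figure D4:**
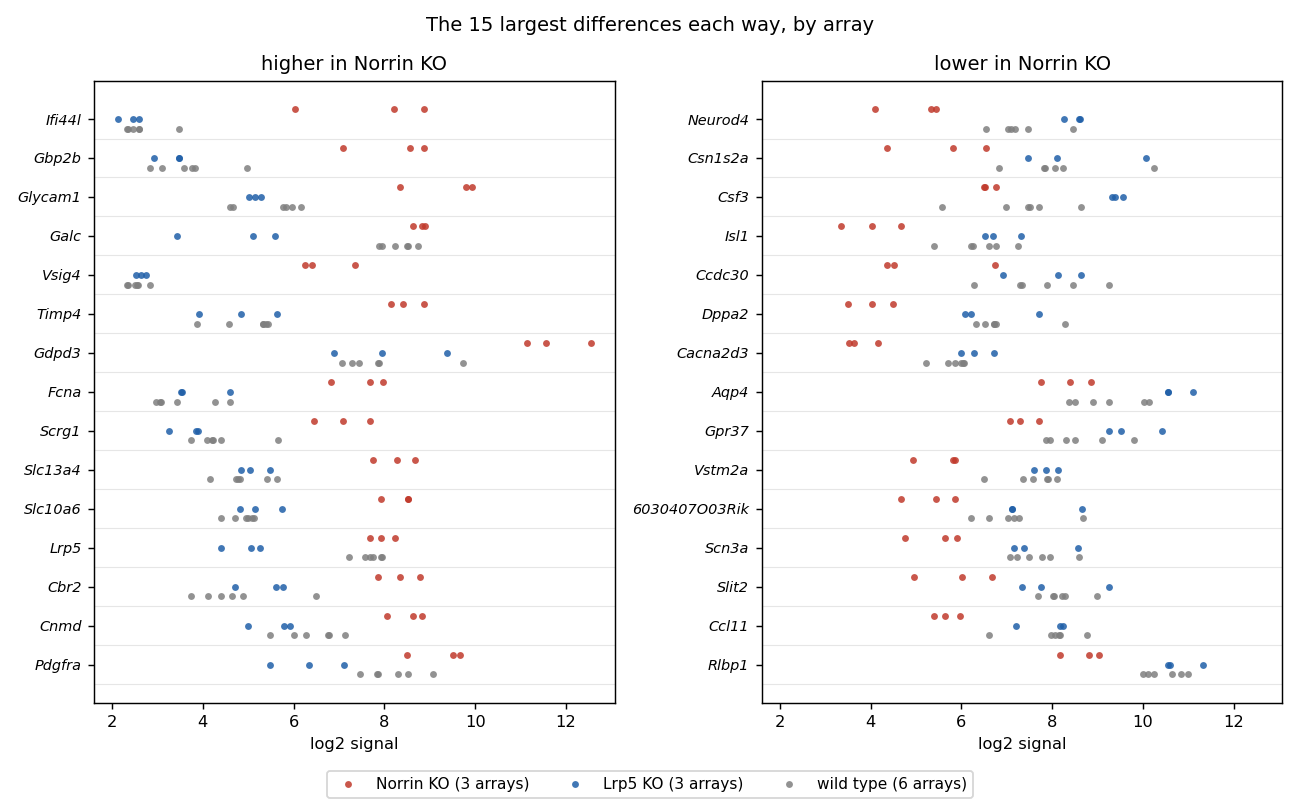
Log2 signal by array (horizontal axis) for the 15 genes with the largest rise (left panel) and the 15 with the largest fall (right panel), with Norrin KO in red above Lrp5 KO in blue and wild type in grey. Points of Norrin KO and Lrp5 KO do not overlap in any row, and Galc and Lrp5 are rows in which wild type lies with Norrin KO.

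Several matrix genes rose in Norrin KO. Of 22 basement membrane and collagen genes, 6 rose and none fell, beside 9.50% and 2.43% of all genes, with a list median of 0.44. Col6a1 and Col6a2, chains of the beaded collagen VI, rose most. Col6a1 read 11.54, 10.99 and 11.19 in Norrin KO, against 9.19, 8.76 and 8.66 in Lrp5 KO and a median of 8.03 in wild type (2.37, adjusted p = 0.0123). Col6a2 read 11.41, 10.66 and 10.93 in Norrin KO, against 8.7, 9.01 and 8.74 in Lrp5 KO and a median of 7.7 in wild type (2.18, adjusted p = 0.00998). Both chains stood in Norrin KO above every Lrp5 KO and wild-type array. Col1a1, a chain of the fibrillar collagen I, read 10.33, 11 and 10.8 in Norrin KO, against 8.76, 8.89 and 8.87 in Lrp5 KO and a median of 10.74 in wild type (1.87, adjusted p = 0.00318), so here Lrp5 KO was the low group.

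Its partner chain Col1a2 (0.82), the basement membrane collagen Col18a1 (1.00) and the fibrillar Col5a1 (0.94) also rose, with adjusted p of 0.00781, 0.00785 and 0.0382. Of the 6 collagens all but Col5a1 passed whichever knockout array was left out, and with the actin gap as a covariate only Col1a1 passed (adjusted p = 0.0259). The differences of the others in that fit were 2.08 for Col6a1, 1.87 for Col6a2, 0.78 for Col1a2, 0.99 for Col18a1 and 1.10 for Col5a1, with adjusted p of 0.077 to 0.136. When the arrays were quantile normalized again 5 members of the list rose and 1 fell. Col15a1 differed by 0.72 (0.04 to 1.39, adjusted p = 0.147), the laminin chain Lama4 by 0.46 (0.02 to 0.91, adjusted p = 0.158), the collagen IV chain Col4a1 by 0.07 (−0.2 to 0.33) and fibronectin, Fn1, by 0.17 (−0.24 to 0.59).

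Of 10 fibroblast markers measured, Pdgfra, Col1a1 and Col1a2 rose and none fell, beside 9.50% and 2.43% of all genes. The pair of collagens stands in both lists, which leaves Pdgfra as the 1 riser outside the matrix list. The mean of the list was 7.49, 7.6 and 7.77 on the Norrin KO arrays, against 6.92, 7.28 and 7.06 on the Lrp5 KO arrays and 7.48 to 7.87 in wild type. Dcn and Lum, matrix proteoglycans that define fibroblasts, averaged 6.41 and 3.68 in Norrin KO, against 7.05 and 4.02 in Lrp5 KO, and did not pass (−0.64, interval −1.46 to 0.18, and −0.33, interval −1.07 to 0.41). The part of fibroblasts in the collagen signals was not tested. In bulk RNA of this kind, fewer cells of a type and less RNA per cell cannot be told apart.

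Glial and neural markers moved in both directions. Of 13 markers of Müller glia and astrocytes, S100b and Gfap rose and Glul, Rlbp1 and Aqp4 fell, beside 9.50% and 2.43% of all genes. Gfap, the intermediate filament of astrocytes and reactive glia, read 9.33, 10.04 and 9.91 in Norrin KO, against 6.62, 7.72 and 6.74 in Lrp5 KO and a median of 8.04 in wild type. Norrin KO arrays lay above all wild-type arrays, and of the Lrp5 KO arrays 1 and 3 lay below the lowest of them, 7.71, and Lrp5 KO 2, at 7.72, just above it. The difference was 2.73 (1.89 to 3.57, adjusted p = 0.00174), and both other Gfap probe sets passed, with 2.52 and 4.04. S100b, a calcium-binding protein of astrocytes, read 8.7, 8.56 and 8.54 in Norrin KO, against 4.95, 6.37 and 6.14 in Lrp5 KO and a median of 7 in wild type (2.78, adjusted p = 0.000715). Glul, the glutamine synthetase of Müller glia, averaged 12.99 ± 0.1 in Norrin KO and 13.43 ± 0.12 in Lrp5 KO (−0.44, adjusted p = 0.036), a call that was lost after renewed quantile normalization (−0.34, adjusted p = 0.0776). A second Glul probe set gave −0.89 and passed. The mean of the list was 9.69 to 10.06 in Norrin KO, against 9.99 to 10.37 in Lrp5 KO and 9.42 to 10.32 in wild type.

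Several cone genes were lower in Norrin KO. Of 9 measured, 4 fell and none rose, beside 2.43% and 9.50% of all genes. The list median was −1.05, the lowest of the lists. The list mean was 5.38, 5.08 and 4.93 on the Norrin KO arrays, against 6.42, 6.42 and 5.51 on the Lrp5 KO arrays and 4.98 to 5.21 in wild type, so that Lrp5 KO was the group above wild type. The cone arrestin Arr3 read 4.91, 4.41 and 4.62 in Norrin KO, against 6.78, 7.78 and 5.65 in Lrp5 KO and a median of 5.72 in wild type (−2.09, adjusted p = 0.0204). The short-wave opsin Opn1sw read 4.98, 3.81 and 4.45 in Norrin KO, against 7.49, 6.11 and 5.61 in Lrp5 KO and a median of 4.78 in wild type (−1.99, adjusted p = 0.0164), while its second probe set gave 0.02. The middle-wave opsin Opn1mw (−1.05, adjusted p = 0.0251) and the cone transducin subunit Gnb3 (−1.45, adjusted p = 0.0377) fell as well, and the cone phosphodiesterase Pde6c did not pass (−1.38, interval −2.35 to −0.42, adjusted p = 0.0597).

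None of the 4 cone genes passed whichever array was left out. With the cone mean as a covariate, an alternative added after the values were seen, the count over all genes was 66 higher and 8 lower. The part of cone RNA in the other differences was not tested. Rod markers gave 1 fall among 13, beside 2.43% of all genes, in Rom1, a disc rim protein (−0.85, adjusted p = 0.0192). Their mean was 6.82, 6.73 and 5.37 in Norrin KO, against 7.31, 6.9 and 6.53 in Lrp5 KO and 5.62 to 6.45 in wild type. The rod arrestin Sag differed by −0.88 (−1.87 to 0.11) and the rod transducin Gnat1 by −0.39 (−1.12 to 0.33).

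Of 16 markers of inner retinal neurons, 3 rose and 1 fell, beside 9.50% and 2.43% of all genes. Thy1, a surface protein of ganglion cells and also of activated endothelial cells and fibroblasts, read 10.84, 10.33 and 10.48 in Norrin KO, against 8.38, 8.64 and 8.56 in Lrp5 KO and 4.59 to 5.65 in wild type. The groups formed 3 separate levels, and the difference of 2.03 (1.56 to 2.49, adjusted p = 0.000397) passed without any 1 of the 6 arrays and with the actin gap as a covariate (adjusted p = 0.012). Rbpms, an RNA-binding protein of ganglion cells and smooth muscle, rose by 0.92 (adjusted p = 0.022), and Trpm1, the channel of bipolar cells and a melanocyte gene, by 1.14 (adjusted p = 0.0217). The knockout arrays overlapped for Trpm1. For Rbpms 3 other probe sets gave −0.35 to 0.21 and none passed, and for Trpm1 3 others gave −0.76 to 1.06 and 1 passed. Neither gene passed with the actin gap as a covariate (differences of 0.42 and 1.03, adjusted p = 0.314 and 0.17). Lhx1, a factor of horizontal cells, fell by 0.98 (adjusted p = 0.0462), lost its call after renewed quantile normalization (adjusted p = 0.065), and had −0.22 in its other probe set. Of these 4 genes Thy1 alone passed whichever array was left out. The defining interneuron gene Gad1 lay near the bottom of the arrays, at means of 2.93 in Norrin KO and 3.18 in Lrp5 KO, and the neurofilament Nefl at 6.35 and 6.24.

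Pericyte and smooth muscle markers gave 2 rises and 1 fall among 14, beside 9.50% and 2.43% of all genes. Vtn, the adhesion protein vitronectin made by pericytes, read 10.81, 10.17 and 9.99 in Norrin KO, against 11.59, 12.11 and 11.93 in Lrp5 KO and a median of 12.7 in wild type. The groups formed 3 separate levels (−1.55, interval −1.98 to −1.13, adjusted p = 0.000938), a second Vtn probe set passed with −2.4, and the call held with the actin gap as a covariate (adjusted p = 0.00235). Cspg4, the proteoglycan NG2, rose by 0.77 (adjusted p = 0.048) and the aminopeptidase Anpep by 0.83 (adjusted p = 0.0382). The arrays of both overlapped, and both lost their call when the arrays were quantile normalized again (adjusted p = 0.0555 and 0.0681). The pericyte receptor Pdgfrb differed by −0.53 (−1.1 to 0.04) and Rgs5, a pericyte regulator of G proteins, by −0.36 (−0.64 to −0.07, adjusted p = 0.0903). The list mean was 10.7 to 10.84 in Norrin KO, against 10.61 to 11.12 in Lrp5 KO and 10.54 to 10.85 in wild type.

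Macrophage markers gave 2 rises and no fall among 18, which is about the 9.50% of all genes that rose, with a list median of −0.03. Both were genes known from perivascular macrophages. Cd163, the haemoglobin scavenger receptor, read 9.24, 9.92 and 9.01 in Norrin KO, against 7.32, 7.07 and 7.47 in Lrp5 KO and a median of 5.61 in wild type (2.1, interval 1.08 to 3.13, adjusted p = 0.0145). Lyve1, a hyaluronan receptor of perivascular macrophages and lymphatic vessels, read 8.91, 8.57 and 7.65 in Norrin KO, against 6.61, 7.06 and 6.79 in Lrp5 KO and a median of 5.8 in wild type (1.55, adjusted p = 0.0286). The knockout arrays overlapped for neither gene. The mannose receptor Mrc1 had no overlap either, at 10.2, 11.07 and 9.99 in Norrin KO, against 8.8, 9.51 and 9.42 in Lrp5 KO, but did not pass (1.17, interval −0.39 to 2.74). The microglial receptor Cx3cr1 lay lower in Norrin KO without passing (−0.87, interval −1.69 to −0.04, adjusted p = 0.152), and Aif1, which marks microglia and macrophages alike, differed by −0.05 (−1 to 0.9). The list mean was 9.47 to 10.07 in Norrin KO, against 9.11 to 9.69 in Lrp5 KO and 8.1 to 9.44 in wild type. Neither Cd163 nor Lyve1 passed with the actin gap as a covariate (differences of 2.48 and 1.21, adjusted p = 0.0713 and 0.245).

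Antigen presentation genes gave 2 falls and no rise among 12 measured, beside 2.43% and 9.50% of all genes, with a median of −0.4. H2-K1, a class I heavy chain, averaged 11.75 ± 0.1 in Norrin KO and 12.48 ± 0.05 in Lrp5 KO, against 12.28 ± 0.16 in wild type (−0.72, adjusted p = 0.00562). Cd74, the class II invariant chain, read 11.9, 11.2 and 10.75 in Norrin KO, against 12.37, 12.62 and 12.8 in Lrp5 KO and a median of 10.8 in wild type (−1.31, adjusted p = 0.0445). Both were lower in Norrin KO without overlap, while B2m (−0.29, adjusted p = 0.0846), H2-Aa (−1.13, adjusted p = 0.209) and the class II regulator Ciita (−0.55, adjusted p = 0.11) did not pass. H2-K1 passed whichever of the 6 knockout arrays was left out and with the actin gap as a covariate (adjusted p = 0.0407). Cd74 passed in only 1 of the 6 fits with an array left out. With the actin gap Cd74 differed by −1.76 and did not pass (adjusted p = 0.0925). Neither gene passed with the 6 arrays alone (adjusted p = 0.0736 and 0.0806). H2-K1 shares sequence with other class I genes, so its signal may not be of 1 gene. Among 12 markers of other blood cells and 5 of red cells none passed, and the T cell gene Cd3e and the neutrophil gene S100a8 had intervals of −0.04 to 1.74 and −0.97 to 2.33.

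Venous and leukocyte adhesion genes gave 2 falls and no rise among 17, beside 2.43% and 9.50% of all genes. Ackr1, the chemokine-binding receptor of venules, read 7.99, 8.39 and 7.49 in Norrin KO, against 10.06, 9.83 and 9.68 in Lrp5 KO and a median of 6.05 in wild type. Both knockouts lay above wild type, Norrin KO by less, and the difference was −1.9 (−2.8 to −1.01, adjusted p = 0.0123). Tmem252, a membrane protein, read 9.37, 10.87 and 10.58 in Norrin KO, against 11.32, 11.86 and 11.52 in Lrp5 KO (−1.29, adjusted p = 0.0172). Tmem252 passed whichever knockout array was left out, and Ackr1 did not (highest adjusted p = 0.0549). With the actin gap as a covariate neither passed. The differences in that fit were −0.46 for Tmem252 and −1.95 for Ackr1 (adjusted p = 0.255 and 0.0993). Selp, the P-selectin of activated venules, did not overlap at 11.88, 12.01 and 11.41 in Norrin KO, against 12.71, 12.87 and 12.66 in Lrp5 KO, but wild type ranged over 5.49 to 8.24 and the difference of −0.98 did not pass (adjusted p = 0.286). Both other Selp probe sets passed, with −2.08 and −1.55. Vcam1, Icam1 and Vwf differed by −0.08 (−0.52 to 0.37), −0.2 (−0.66 to 0.26) and −0.11 (−0.47 to 0.24).

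Arterial and Notch genes gave 3 rises and no fall among 21, a share not far above the 9.50% of all genes that rose, with a list median of 0.13. Gja5, the arterial connexin 40, read 5.7, 5.94 and 5.5 in Norrin KO, against 4.37, 4.54 and 4.48 in Lrp5 KO and a median of 4.19 in wild type (1.25, adjusted p = 0.00634). Eln, the elastin of arterial walls, read 11.57, 11.44 and 11.41 in Norrin KO, against 10.46, 10.41 and 10.27 in Lrp5 KO and a median of 11.48 in wild type (1.09, adjusted p = 0.0133). Gja5 was raised above wild type in Norrin KO, whereas Eln was at the wild-type level there and below it in Lrp5 KO. Notch4, the endothelial Notch receptor, rose by 0.98 (adjusted p = 0.0214), and the Notch target Hey1 read 12.01, 12.52 and 12.42 in Norrin KO, against 11.92, 11.81 and 11.72 in Lrp5 KO, just short of the threshold (0.5, adjusted p = 0.0518). Efnb2 differed by 0.1 (−0.25 to 0.44), Gkn3 by −0.34 (−1.29 to 0.61) and Bmx by −0.15 (−0.85 to 0.56). When the arrays were quantile normalized again 5 members of the list rose and 1 fell, and Gja5 alone passed with the actin gap as a covariate (adjusted p = 0.0486).

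Id1, Id3 and Smad7, genes of BMP signalling, were lower in Norrin KO. Id1 and Id3, direct targets of BMP receptors, averaged 11.7 ± 0.66 and 12.15 ± 0.21 in Norrin KO, against 12.76 ± 0.16 and 12.78 ± 0.08 in Lrp5 KO and 12.67 and 12.61 in wild type. The differences were −1.06 (adjusted p = 0.0161) and −0.63 (adjusted p = 0.0118), with no overlap. Smad7, an inhibitor of the pathway, fell by 0.85 (adjusted p = 0.0435), and Tgfbi, a matrix protein induced by TGF-beta, rose by 0.66 (adjusted p = 0.0214). Thus 3 of 19 genes measured for TGF-beta and BMP fell and 1 rose, beside 2.43% and 9.50% of all genes. The receptors Eng, Acvrl1 and Tgfbr2 differed by −0.24 (−0.6 to 0.13), −0.48 (−0.93 to −0.04, adjusted p = 0.137) and −0.12 (−0.39 to 0.15). None of the 4 passed with the actin gap as a covariate (adjusted p = 0.159 to 0.549), and only Id3 passed whichever array was left out. The differences with the actin gap were smaller, at −0.5 for Id1, −0.41 for Id3, −0.26 for Smad7 and 0.34 for Tgfbi. Id1 read 11.14, 12.43 and 11.53 in Norrin KO and Smad7 11.06, 12.3 and 11.83, so both were lowest on Norrin KO 1.

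Cell cycle genes gave 2 rises and 1 fall among 18, near the 9.50% and 2.43% of all genes, with a list median of 0.59. Aurkb and Plk1, mitotic kinases, rose by 1.11 and 0.85 (adjusted p = 0.0242 and 0.00914), with means of 5.57 and 6.26 in Norrin KO, against 4.45 and 5.41 in Lrp5 KO. Ccnb2, a mitotic cyclin, read 7.18, 7.07 and 7.69 in Norrin KO, against 5.88, 6.59 and 6.42 in Lrp5 KO, with no overlap and no call (1.02, adjusted p = 0.0559). Top2a, which untangles replicated DNA, fell (−1.56, adjusted p = 0.0449), but its other probe sets gave 0.2 and 0.39 and the call was lost on renormalization (adjusted p = 0.0555). The proliferation marker Mki67 differed by −0.15 (−0.87 to 0.57) and the kinase Cdk1 by 0.64 (−0.11 to 1.38). Of the 3 called genes, Plk1 passed whichever array was left out, and none passed with the actin gap as a covariate (differences of 1.2, 0.85 and −2.22 for Aurkb, Plk1 and Top2a, adjusted p = 0.125, 0.0799 and 0.0741).

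Respiratory chain genes moved in both directions, with a median of −0.01. Among 19, 3 rose (Uqcrq, Ndufv1 and Ndufa1) and 3 fell (Uqcrc1, Cycs and Ndufb9), beside 9.50% and 2.43% of all genes. The differences of the risers were 1.18, 0.85 and 0.63, and those of the fallers −0.8, −0.65 and −0.64. Other probe sets gave −0.25 to 0.48 for Uqcrq and −0.03 and 0.16 for Ndufb9, and none of them passed. They gave 0.21 and 0.78 for Ndufv1 and −1.33 to 0.79 for Cycs, with 1 passing for each gene. Of these 6 genes, Ndufv1 and Uqcrc1 passed whichever array was left out, and none passed with the actin gap as a covariate or with the 6 arrays alone. Of 14 stress genes measured 2 fell, beside 2.43% of all genes. The chaperone Hsp90aa1 fell by 0.98 (adjusted p = 0.0125) and the haem oxygenase Hmox1 by 1.31 (adjusted p = 0.0476). Neither passed whichever array was left out or with the actin gap as a covariate (−0.98 and −0.63, adjusted p = 0.101 and 0.466), and Hmox1 also lost its call after renewed quantile normalization (adjusted p = 0.0577). Of 16 hypoxia and glycolysis genes 1 fell, beside 2.43% of all genes: Ankrd37, a target of hypoxia-inducible factors. It averaged 8.82 ± 0.21 in Norrin KO and 9.76 ± 0.15 in Lrp5 KO, against 11.13 ± 0.24 in wild type (−0.94, adjusted p = 0.00968). Among 12 pigment cell markers 1 rose, beside 9.50% of all genes: Tyrp1, a melanin enzyme (1.52, adjusted p = 0.0179). No lens marker passed among 8.

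In 3 further lists of endothelial function no member passed. Among 20 tip cell genes the median was 0.1: the tip cell marker Esm1 differed by −0.38 (−1.2 to 0.45), the ligand Apln by −0.02 (−0.96 to 0.93), the antagonist ligand Angpt2 by 0.49 (0.11 to 0.88, adjusted p = 0.0852) and the channel subunit Kcne3 by 1.3 (0.24 to 2.36, adjusted p = 0.1). Among 15 genes of the VEGF and angiopoietin axes the median was 0.04. The receptors Kdr, Flt1 and Tek had intervals of −0.42 to 0.41, −0.36 to 0.22 and −0.05 to 0.5, and the ligand Vegfa one of −1.12 to −0.14 (adjusted p = 0.0842, and 0.0378 after quantile normalization). A second probe set for Vegfa passed with −0.93. Among 18 immediate early and flow-responsive genes the median was −0.11, and Fos, Egr1, Klf2 and Klf4 had intervals no wider than −0.46 to 0.46.

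The labelled cell type was checked with endothelial genes, which were high in both knockouts. Pecam1, the surface protein used for the purification, averaged 11.46 ± 0.5 in Norrin KO and 11.76 ± 0.17 in Lrp5 KO, against 11.59 ± 0.17 in wild type. The mean of 17 pan-endothelial genes was 11.47 to 11.76 in Norrin KO, against 11.66 to 11.78 in Lrp5 KO and 11.58 to 11.73 in wild type. In that list 1 gene rose and 1 fell, beside 9.50% and 2.43% of all genes. The list median was −0.24, against 0.08 over all genes, and 12 of the 17 differences were negative. The medians of the junction and transporter lists, −0.24 and −0.16, were thus no lower than that of general endothelial genes. The transcription factor Erg rose by 0.78 (adjusted p = 0.0338) and its relative Fli1 fell by 0.7 (adjusted p = 0.0357). Neither passed with the actin gap as a covariate, and the second Erg probe set gave −0.46.

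**Figure D5:**
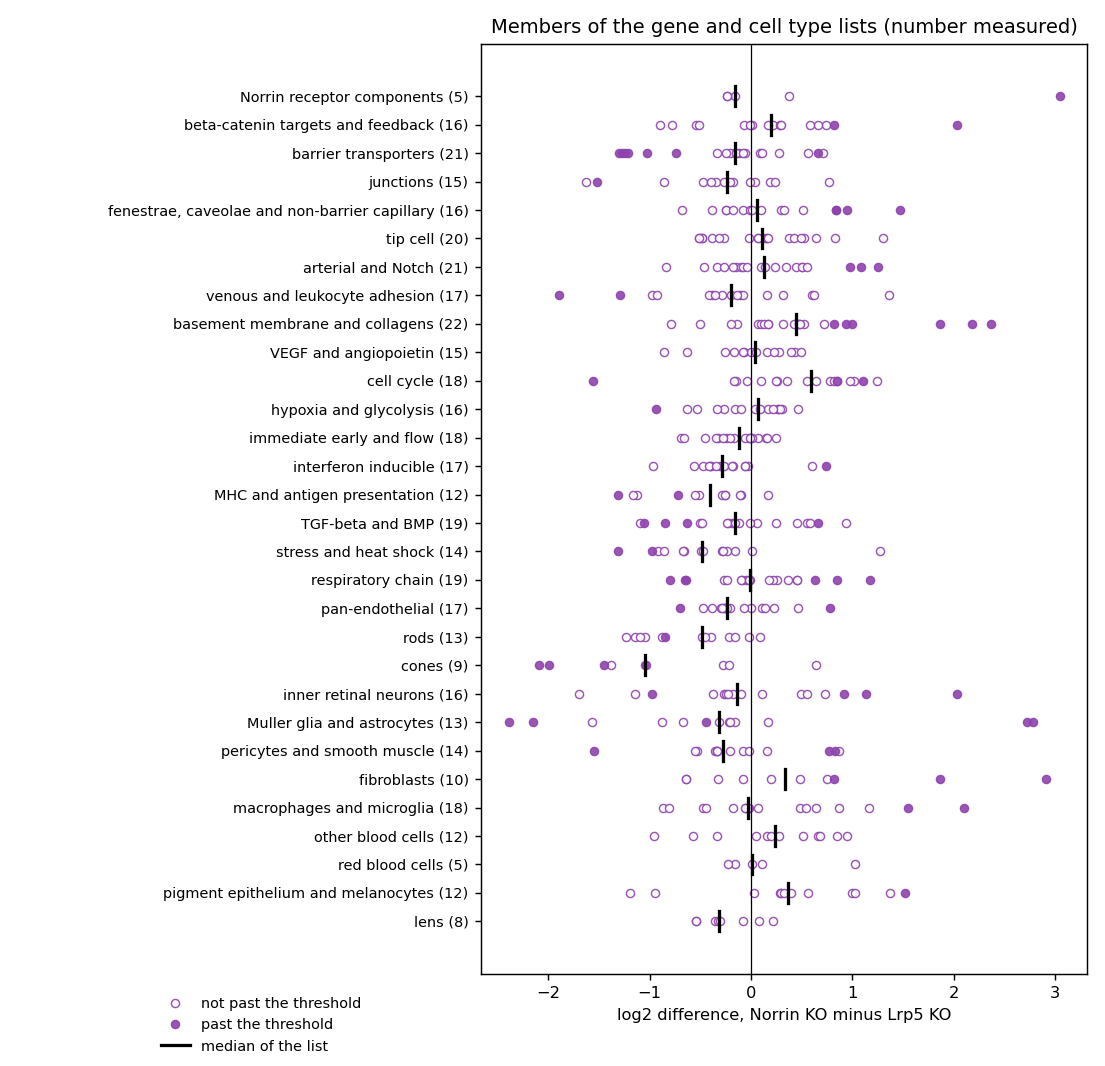
Log2 difference between Norrin KO and Lrp5 KO (horizontal axis) for every measured member of the gene and cell type lists other than the sex-linked controls, 1 row per list, with filled points past the threshold and a black bar at the list median. Of the lists drawn, the cone list has the lowest median (−1.05) and the cell cycle list the highest (0.59), and the Müller glia row holds both large rises and large falls.

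Genes beside the deleted ones were counted separately. Of 31 measured neighbours of Lrp5 on chromosome 19, up to 25 on each side, 5 rose and none fell: Acy3 (1.2), Tmem134 (1.02), Ndufv1 (0.85), Cpt1a (0.72) and Coro1b (0.58). This was 16.1%, beside 11.9% of all genes in either direction and 9.50% that rose. The median difference of the 31 neighbours was 0.02. Of 50 neighbours of Ndp on the X chromosome, 3 rose, Chst7 (1.35), Cask (0.62) and Mid1ip1 (0.57), and 2 fell, 2010308F09Rik (−0.69) and Maoa (−0.59), which was 10.0%. The share beside Ndp lay close to that of all genes, and the share beside Lrp5 lay above it, on 5 genes that all rose. Chst7, a sulfotransferase, read 7.99, 7.15 and 7.6 in Norrin KO, against 6.15, 6.44 and 6.12 in Lrp5 KO and a median of 5.37 in wild type (adjusted p = 0.00571), and Maoa, the monoamine oxidase, lay below wild type in both knockouts, at means of 9.02 in Norrin KO and 9.61 in Lrp5 KO, against 11.22.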

How the data were processed

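RNA of purified adult retinal endothelial cells was hybridised to Affymetrix mouse arrays, 1 array per pool. The deposited log2 signals of 45101 probe sets were made by the authors with RMA, per the submitters' processing notes; the sources used here do not give its settings or say whether all 15 arrays were normalized together. Probe sets were named through the platform annotation: 34958 had 1 symbol, 932 several and 9211 none. Each of 18194 genes was read from its brightest probe set, by mean signal over the series. A model with 4 group means over all 15 arrays was fitted with limma 3.58.1 in R 4.3.3 (lmFit, contrasts.fit and eBayes), with two-sided p-values adjusted by Benjamini-Hochberg over all genes and a threshold of 0.05. The fit was tested on simulated data. No depth exists for arrays, so the number of pools limits the precision. Arrays were grouped by their titles.

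Genes were named by a fixed rule: the 15 largest differences each way among genes that passed without overlap of the knockout arrays, the sex-linked controls, the receptor components, list members that passed, up to 4 well known members of each list that did not, and passing neighbours of Lrp5 and Ndp. The genes and lists were chosen with earlier results of these data known. List genes without a probe set of their own symbol were not analysed here. Alternatives covered normalization, probe set choice, variance model, arrays left out, the replicate number as a block, and covariates for RNA quality, sex genes and other cell types. The same-numbered arrays of the knockouts had deviations from their group means that correlated at 0.066, −0.097 and 0.011, so the numbers were not treated as pairs.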

Additional observations from a re-analysis of the deposited data

Results flagged for a closer look

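Among 198 genes examined, 19 (9.60%) had a wild-type array that stood apart from the other 5 by Dixon's criterion, which chance meets in about 1 of 20 groups. Wild type 4 held 6 of them, wild type 2 held 5, wild type 3 held 4, wild type 1 and wild type 6 held 2 each, and wild type 5 held 0. These arrays set the wild-type level and the spread, not the difference between the knockouts.

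On wild type 4, the chemokine Ccl11 read 6.61 against a wild-type median of 8.11, Mx1 read 5.51 against 7.08, and Fabp4 read 7.51 against 8.9. Cd36 at 8.3 (median 7.38), Dppa2 at 8.29 (median 6.72) and Ndp at 4.81 (median 4.38) were high there. On wild type 2, Ifi44l read 3.48 (median 2.53), Gdpd3 9.72 (median 7.65), Gpihbp1 5.52 (median 4.62) and Apln 5.48 (median 3.89), while Gnb3 was low at 4.33 (median 5.36). On wild type 3, Gad1 read 5.16 (median 2.97) and Calb2 5.57 (median 4.31), whereas Hspa1a at 9.95 (median 11.61) and Col1a2 at 9.91 (median 10.36) were low. Wild type 1 was high in Vwf at 12.7 (median 12.51) and Scrg1 at 5.66 (median 4.21). Wild type 6 was low in Gnat2 at 4.45 (median 5.78) and high in B2m at 13.66 (median 13.58).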

How the results depend on the processing

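The counts of 1729 higher and 442 lower genes stayed within 1.5 times under renewed quantile normalization (1475 and 518), centring, a filter on dim genes, other probe set choices, eBayes with trend and robust, and the macrophage marker mean as a covariate. Array weights gave 2444 and 984. The counts fell to 158 and 40 with only the 6 arrays, 191 and 52 with the actin gap, 1095 and 274 with the rod mean, 1215 and 274 with Xist and Eif2s3y, and 842 and 187 for a difference of at least 2-fold. Alternatives chosen after seeing the data gave 548 and 197 without Norrin KO 1, Lrp5 KO 1 and wild type 4, 790 and 186 with the Gapdh gap, 66 and 8 with the cone mean, and 16 and 3 without Norrin KO 1 and with the actin gap. Leaving out 1 array gave 523 to 2176 higher and 145 to 660 lower genes, lowest without Lrp5 KO 1 and highest without wild type 4. Apart from fewer arrays or samples in some fits, the cause was not tested. With the replicate number as a block, 1298 and 445 passed, although the labels state no pairing.

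The share of higher genes was 79.6%, against 74.0% after quantile normalization and 89.2% with the cone mean. Of 127 named genes that passed, 111 also passed after quantile normalization, 102 with the block, 73 with the Gapdh gap, 50 with only the 6 arrays, 35 with the actin gap and 16 with the cone mean. The sign turned for Dppa2 without probe sets ending in _x_at or _s_at (0.023, adjusted p = 0.963) and for Slc38a3 with the cone mean (0.106, adjusted p = 0.899). With 3 pools a group, a missed threshold does not show equal levels, and probe sets near the bottom of an array give differences of uncertain size.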

Other observations

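The next 15 genes in order of size each way, chosen after their values were seen, also included glial, matrix and neural genes. Chil1, a chitinase-like protein of astrocytes and macrophages, read 9.84, 11.15 and 9.66 in Norrin KO, against 7.58, 7.55 and 7.52 in Lrp5 KO and a median of 7.12 in wild type (2.67, adjusted p = 0.00286). Cdh19, a cadherin of Schwann cells, read 6.62, 5.89 and 5.7 in Norrin KO, against 3.55, 3.87 and 3.07 in Lrp5 KO (2.57, adjusted p = 0.0025). F8, the coagulation factor VIII gene, which endothelial cells express, read 7.31, 6.22 and 7.23 in Norrin KO, against 4.73, 4.58 and 4.3 in Lrp5 KO (2.39, adjusted p = 0.00924). For all 3 genes Norrin KO lay above every Lrp5 KO and wild-type array. All 15 of these rises passed whichever knockout array was left out, and 6 passed with the actin gap as a covariate.

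Ctr9 and Zfp386 were rises in which Lrp5 KO stood below wild type. Ctr9, a subunit of the transcription elongation complex PAF1, read 9.64, 8.96 and 9.14 in Norrin KO, against 6.37, 6.95 and 6.6 in Lrp5 KO and 9.42 to 10.27 in wild type (2.61, adjusted p = 0.000651). Its 4 other probe sets gave −0.38 to 1.03, and 1 of them passed. Zfp386, a zinc finger gene on chromosome 12 like Galc, read 8.92, 8.74 and 8.82 in Norrin KO, against 5.65, 6.82 and 7.09 in Lrp5 KO and a median of 8.73 in wild type (2.31, adjusted p = 0.00628).

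Among the falls, Pcp4l1, a small protein related to the calmodulin regulator Pcp4, had the smallest adjusted p of these 15. It read 9.28, 9.32 and 9.45 in Norrin KO, against 10.99, 11.54 and 11.43 in Lrp5 KO and a median of 11.58 in wild type (−1.97, adjusted p = 0.000397). Npas2, a transcription factor of the circadian clock, read 6.74, 6.25 and 6.31 in Norrin KO, against 7.67, 8.85 and 8.65 in Lrp5 KO and a median of 8.23 in wild type (−1.96, adjusted p = 0.00546). Both lay below every wild-type array in Norrin KO, and both also passed with the actin gap as a covariate (adjusted p = 0.0093 and 0.0413). Plau, the urokinase plasminogen activator, read 5.09, 6.55 and 5.81 in Norrin KO, against 7.84, 7.66 and 8.13 in Lrp5 KO and 6.07 to 7.63 in wild type (−2.06, adjusted p = 0.00964). Here Lrp5 KO was the group above every wild-type array. Of these 15 falls 4 passed whichever knockout array was left out.

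Among 10092 probe sets with no symbol or several, 111 were higher and 108 lower in Norrin KO, or 2.17%, beside 9.37% of the 34958 probe sets with 1 symbol, each taken alone. Each set was fitted and its p-values adjusted apart from the other, so the shares do not rest on a common cutoff.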
